A study of Homo sapiens with 6 samples.

Results

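CD14, its lipopolysaccharide partner LY96, the Toll-like receptor genes TLR1, TLR2, TLR4, TLR5, TLR6 and TLR8, and the adaptor MYD88 were examined in human macrophages given small interfering RNA against a long noncoding RNA. The 9 genes were taken by name from the 17042 genes of the deposited count table, and all 9 had a row. The libraries came from THP-1, an established human monocytic leukaemia line, so all of them share 1 cell line and no donor variation was measured. Per the labels, every culture was first made into macrophages with the phorbol ester PMA at 100 ng/mL for 24 hours and then kept with the cytokine interleukin-4 (IL-4) at 20 ng/mL for 24 hours. The knockdown group (3 libraries, labelled RP11-184M15.1 siRNA) received small interfering RNA against the long noncoding RNA RP11-184M15.1 by lipid transfection before IL-4. The control group (3 libraries, labelled WT) had the same PMA and IL-4, and the labels do not say what its cells were transfected with. The labels do not state whether the libraries of a group came from independent cultures. The p-values therefore speak only of how far these 6 libraries vary, and that variation may be technical.

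Toll-like receptors are membrane proteins that bind molecules common to microbes. CD14 picks up lipopolysaccharide and bacterial lipopeptides at the cell surface and hands lipopolysaccharide to a complex of TLR4 with MD-2, the protein encoded by LY96. TLR2 pairs with TLR1 or TLR6 to bind lipopeptides, TLR5 binds flagellin, and TLR8 binds single-stranded RNA inside endosomes. All of these Toll-like receptors can recruit MYD88, which assembles kinases of the IRAK family and leads to NF-kB activation. Monocytes and macrophages carry CD14 and answer these receptors with cytokines.

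Library totals ran from 12029360 to 14181343 counts in the knockdown group and from 10450043 to 12113848 in the control group. No gene named RP11-184M15.1 was found in the table, so its knockdown was not checked under that name. The most reduced transcript among genes with a mean log2 CPM (counts per 1000000, scaled by library) of at least 1 was AC078850.1, with 335, 355 and 353 counts in knockdown libraries against 2106, 1962 and 1664 in control libraries, a log2 fold change of -2.69 (SE 0.085). Macrophage markers, 8 of 8 with a row, summed to between 4903 and 5049 CPM in knockdown and between 4930 and 5270 CPM in control libraries. Within that list CSF1R, the receptor of a macrophage growth factor, was the most abundant, at 1718.5 ± 27.5 CPM in knockdown and 1744 ± 47.5 CPM in control libraries (SD, n = 3 each). Markers of undifferentiated myeloid cells (4 of 6 with a row) summed to 73.6 to 79.7 CPM in knockdown and 81.1 to 88.3 CPM in control libraries. Dendritic cell markers (3 of 4) summed to 39.3 to 40.0 CPM in knockdown and 33.9 to 37.7 CPM in control libraries. Markers of B cells (3 of 4), fibroblasts (2 of 3) and epithelium (1 of 3) summed to at most 6.64, 2.53 and 0.246 CPM in knockdown libraries and 6.11, 2.55 and 0.385 CPM in control libraries, and of 4 T-cell markers 0 had a row. The 8 transcripts chosen as signs of RNA quality all had negative log2 fold changes, with 0 of 8 past the threshold (4 lower at an unadjusted p under 0.05, where 8.21% of all genes were) and a median of -0.15, and summed to 14721 to 15249 CPM in knockdown and 14036 to 18167 CPM in control libraries. The part of any of these in the results was not tested.

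CD14 and TLR2 rose in knockdown macrophages, and 0 of the 8 members tested fell. Over all 13405 genes tested with edgeR, 1.22% were called higher and 1.61% lower. TLR1 and TLR6, the pairing partners of TLR2, had positive log2 fold changes that did not pass the test. LY96, TLR4, TLR8 and MYD88 had log2 fold changes within 0.08 of 0, and TLR5 was barely detected. In 4 of the 8 the knockdown libraries all lay above the controls, which held for 9.61% of all genes, and in 0 they all lay below, which held for 10.4%. At an unadjusted p under 0.05, 3 of the 8 were higher (CD14, TLR1 and TLR2) and 0 lower, where 6.89% and 8.21% of all genes were. DESeq2 and limma-voom also called CD14 and TLR2 higher and 0 members lower. The members had a median log2 fold change of 0.11, against -0.0019 for all genes. Genes called in either direction were 2.83% of all, with a median absolute log2 fold change of 0.33.

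**Figure D1:**
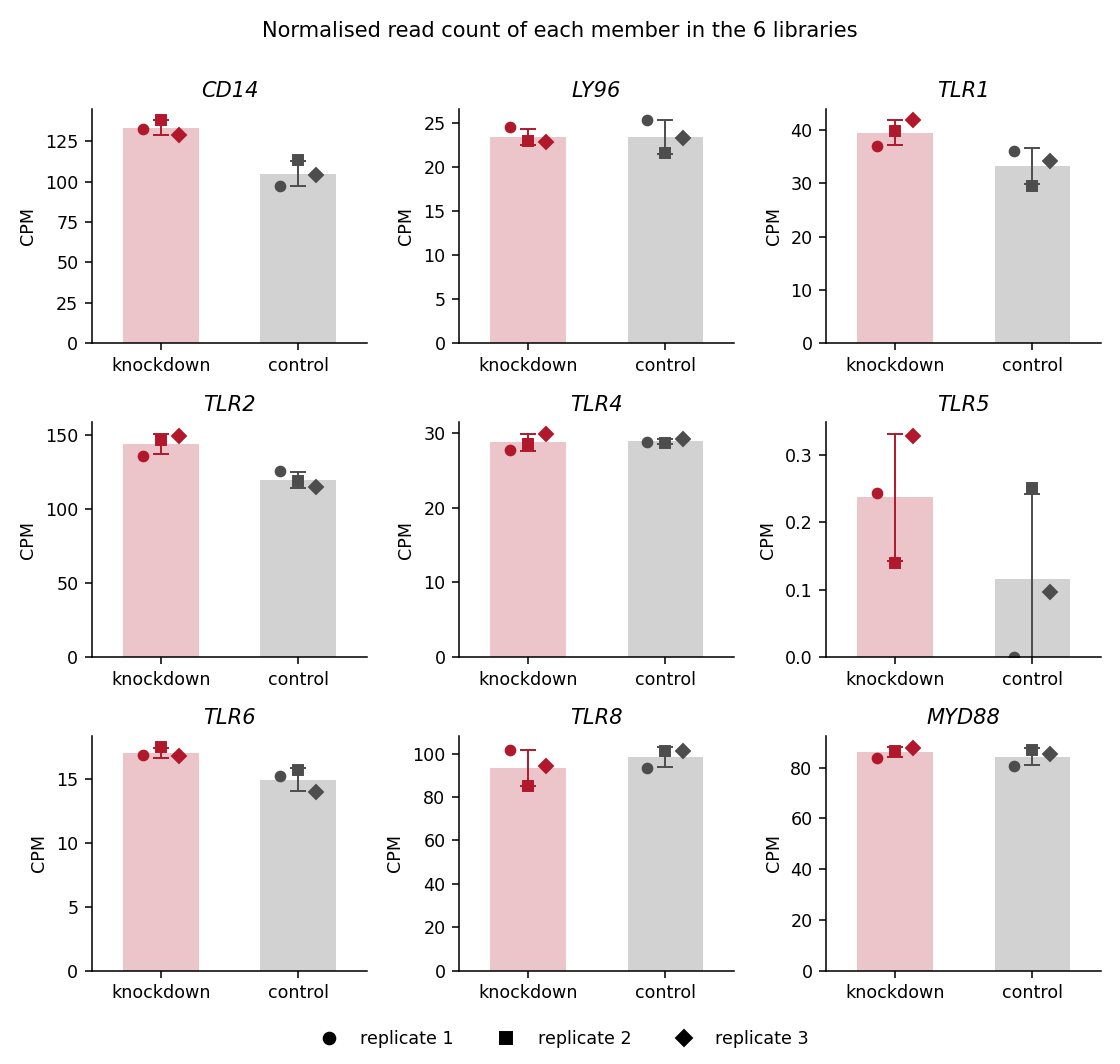
Normalised read count (CPM, linear axes from 0) of the 9 genes in 3 knockdown and 3 control libraries; bars are means, error bars SD, and points single libraries. CD14, TLR1, TLR2 and TLR6 lay above every control library in all 3 knockdown libraries.

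CD14 had 133, 138 and 129 CPM in knockdown libraries, against 97.5, 113 and 104 CPM in control libraries. All 3 knockdown libraries were above all 3 control libraries, and control replicate 1 was the lowest. CD14 rose by 0.34 on the log2 scale (SE 0.057, 95% interval 0.22 to 0.46), a 26.9% higher level, and passed edgeR's quasi-likelihood test with a Benjamini-Hochberg adjusted p of 0.0030 over the 13405 genes. The call held without any 1 library, with adjusted p up to 0.0426, reached without knockdown replicate 2. CD14 (ENSG00000170458.13) is protein-coding, has 2 exons and lies on GRCh38 chromosome 5, 140631728 to 140633701, minus strand, with no annotated gene overlapping it and no 31-base window shared with other genes. Its counts ran from 1032 to 1972 per library, so that counting alone gives an error of 3.11% to 2.25%. In bulk RNA, more CD14 per cell and more CD14-high cells cannot be told apart.

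LY96 had 24.5, 22.9 and 22.7 CPM in knockdown libraries, against 25.3, 21.5 and 23.3 CPM in control libraries. The groups overlapped, and the means were 23.4 ± 0.940 CPM in knockdown and 23.4 ± 1.90 CPM in control libraries (SD, n = 3 each). Its log2 fold change was 0.0022, with a 95% interval of -0.18 to 0.18 and an adjusted p of 0.996 in edgeR. At 242 to 327 counts per library, differences inside that interval remain possible. A difference outside it could also have missed the adjusted threshold. TLR1 did so at a log2 fold change of 0.25, with an SE of 0.081 against 0.085 for LY96.

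TLR2 had 136, 146 and 149 CPM in knockdown libraries, against 126, 119 and 115 CPM in control libraries. The groups did not overlap, and the nearest libraries were knockdown replicate 1 and control replicate 1. TLR2 rose by 0.27 on the log2 scale (SE 0.053, 95% interval 0.15 to 0.38), a 20.3% higher level, with an adjusted p of 0.0109 in edgeR. This call did not hold without some libraries: the adjusted p was 0.0882 without knockdown replicate 2, 0.0876 without knockdown replicate 3 and 0.0704 without control replicate 2, while the log2 fold change stayed between 0.24 and 0.31 with any 1 library left out. TLR2 (ENSG00000137462.7) is protein-coding and lies on GRCh38 chromosome 4, 153684070 to 153705702, plus strand. Of the windows of 31 bases in its longest transcript, 3.51% occur in transcripts of other genes, most of them (3.10%) in AC106865.1.

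TLR1 had 37.0, 39.8 and 41.8 CPM in knockdown libraries, against 36.1, 29.4 and 34.3 CPM in control libraries. Every knockdown library was above every control library, by a small margin between knockdown replicate 1 and control replicate 1. The log2 fold change was 0.25 (SE 0.081, 95% interval 0.081 to 0.43) and did not pass (edgeR adjusted p = 0.119). It passed without control replicate 1 (adjusted p = 0.0351), and the adjusted p was between 0.105 and 0.43 without any other single library.

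TLR6 had 16.8, 17.5 and 16.8 CPM in knockdown libraries, against 15.2, 15.7 and 14.0 CPM in control libraries. The groups did not overlap here either, but the counts, 145 to 249 per library, were the lowest among the 8 members tested. The log2 fold change was 0.19 (SE 0.092, 95% interval -0.0089 to 0.38), with an adjusted p of 0.356 in edgeR.

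TLR1 and TLR6 share sequence, and reads from it cannot be told apart. They overlap on GRCh38 chromosome 4, minus strand, with the annotated TLR6 span inside that of TLR1 (TLR1, ENSG00000174125.7, 38790677 to 38856817; TLR6, ENSG00000174130.12, 38823715 to 38856817), and their annotated exons share 57 bases. Their coding sequences are identical at 79.7% of 2303 aligned bases, against 68.4% for TLR1 with TLR10 and 68.1% for TLR1 with TLR2. Of the 31-base windows in the longest TLR1 transcript, 13.8% also occur in TLR6 transcripts. The longest identical run, 218 bases that are coding in both genes, is shown as the longest of the stretches that the 2 genes share. It lies at chr4:38797236-38797453 in TLR1 and chr4:38827863-38828080 in TLR6 (GRCh38, minus strand, GENCODE 29 transcripts) and is printed in lower case with no part marked.
TLR1 and TLR6: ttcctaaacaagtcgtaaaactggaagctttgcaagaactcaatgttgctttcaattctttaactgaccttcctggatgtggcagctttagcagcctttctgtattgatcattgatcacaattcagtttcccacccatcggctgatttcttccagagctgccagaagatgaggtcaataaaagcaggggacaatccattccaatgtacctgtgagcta
With the counts of both genes summed into 1 feature, an alternative chosen after seeing the data, the log2 fold change was 0.23 and the edgeR adjusted p 0.0694. The summed pair did not pass, and how the estimated counts were split between TLR1 and TLR6 was not tested.

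TLR4, the signalling receptor for lipopolysaccharide, had 27.8, 28.6 and 29.97 CPM in knockdown libraries, against 28.8, 28.6 and 29.3 CPM in control libraries. The knockdown libraries lay on both sides of the controls. Its log2 fold change was -0.0069 (95% interval -0.16 to 0.14; edgeR adjusted p = 0.978). TLR4 (ENSG00000136869.14, GRCh38 chromosome 9, 117704175 to 117724730, plus strand) shares 558 exonic bases with AL160272.2, a gene annotated on the same strand that had no row in the deposited count table.

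TLR8, the endosomal RNA sensor, had 101, 84.9 and 94.4 CPM in knockdown libraries, against 93.3, 101 and 101 CPM in control libraries. Its knockdown libraries were the most spread of any tested member, with knockdown replicate 1 as high as the controls and knockdown replicate 2 below all of them. The log2 fold change was -0.076 (95% interval -0.21 to 0.060; edgeR adjusted p = 0.642). TLR8 (ENSG00000101916.11, GRCh38 chromosome X, 12906620 to 12923169, plus strand) overlaps an antisense gene, TLR8-AS1. That gene shares no exonic bases with TLR8 and had a mean of 0.320 CPM.

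TLR5, the flagellin receptor, had 3, 2 and 4 counts in knockdown libraries, against 0, 3 and 1 counts in control libraries. These counts are too few to test, and 3 counts, the limit that a count of 0 allows, correspond to 0.210 to 0.246 CPM in knockdown and 0.251 to 0.289 CPM in control libraries. A difference in TLR5 was not detectable at this depth. The gene (ENSG00000187554.12) lies on GRCh38 chromosome 1, 223109406 to 223143282, minus strand.

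MYD88 had 83.9, 86.4 and 87.8 CPM in knockdown libraries, against 80.5, 87.1 and 85.4 CPM in control libraries. The groups overlapped. The log2 fold change was 0.028 (95% interval -0.082 to 0.14; edgeR adjusted p = 0.856), at 852 to 1232 counts per library. MYD88 (ENSG00000172936.13) lies on GRCh38 chromosome 3, 38138478 to 38143022, plus strand, and shares no 31-base window with other genes.

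**Figure D2:**
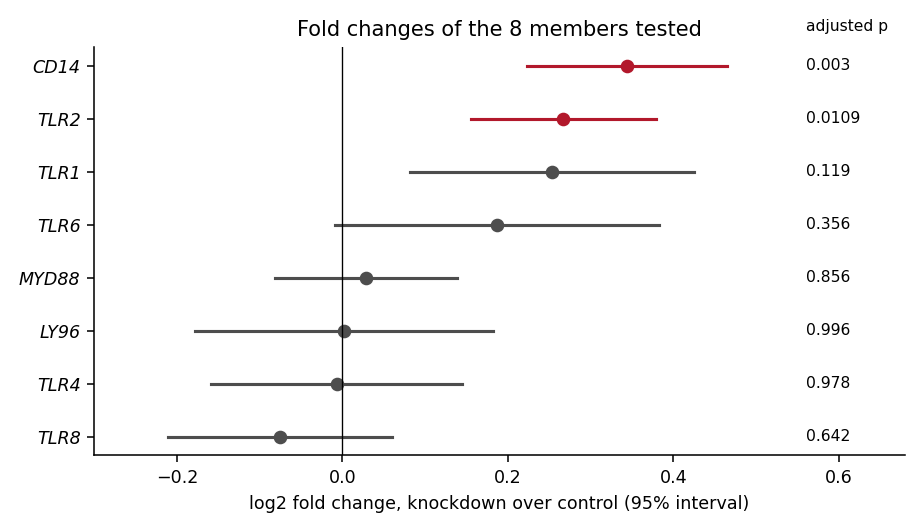
Log2 fold change, knockdown over control, of the 8 members tested, with 95% intervals and edgeR adjusted p; red marks an adjusted p under 0.05. CD14 (0.34) and TLR2 (0.27) passed, and the intervals of TLR6, MYD88, LY96, TLR4 and TLR8 spanned 0.

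**Figure D3:**
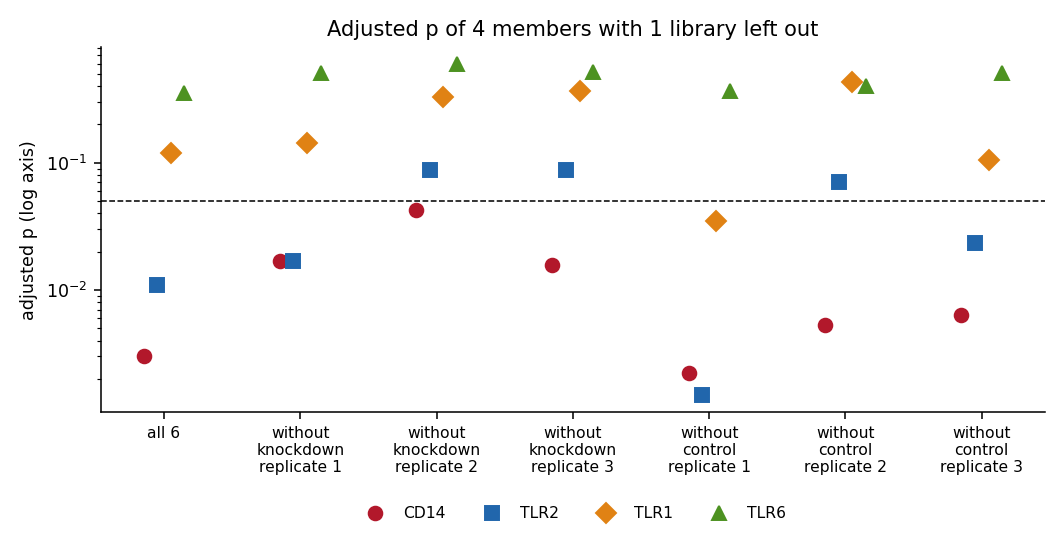
Adjusted p (log axis) of CD14, TLR2, TLR1 and TLR6 with all 6 libraries and with each library left out; the dashed line marks 0.05. CD14 stayed under the line throughout, TLR1 was under it only without control replicate 1, and TLR2 was above it without knockdown replicates 2 or 3 or control replicate 2.

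Ratios of counts within a library do not depend on library scaling, and 5 were compared after the values had been seen. CD14 gave 5.42, 6.03 and 5.68 counts per LY96 count in knockdown libraries, against 3.85, 5.26 and 4.48 in control libraries. Per TLR4 count there were 4.77, 4.85 and 4.31 CD14 counts in knockdown libraries, against 3.38, 3.95 and 3.56 in control libraries. Both ratios were higher in every knockdown library. The two-sided exact permutation p was 0.1 for each (0.25 adjusted over the 5 ratios), which is the smallest that 3 against 3 allows, so the threshold could not be reached. The groups overlapped for LY96 and TLR4, so both ratios mainly repeat the CD14 difference and are not separate evidence for it.

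The ratios among the other receptors overlapped between groups. TLR2 gave 3.68, 3.68 and 3.58 counts per TLR1 count in knockdown libraries, against 3.48, 4.04 and 3.35 in control libraries (exact permutation p = 1). Per TLR6 count there were 8.46 ± 0.427 TLR2 counts in knockdown and 8.02 ± 0.385 in control libraries (SD, n = 3 each; exact permutation p = 0.4). CD14 counts per TLR2 count averaged 0.928 ± 0.0567 in knockdown and 0.879 ± 0.0920 in control libraries (SD, n = 3 each; exact permutation p = 0.6).

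Levels between genes were compared as CPM per kilobase of the longest annotated protein-coding transcript. CD14 was highest, at 70.7 ± 2.46 in knockdown and 55.7 ± 4.19 in control libraries (SD, n = 3 each). LY96 came next at 38.5 ± 1.55 in knockdown and 38.5 ± 3.13 in control libraries. In knockdown libraries the order went on with TLR2 (34.3 ± 1.67), MYD88 (30.2 ± 0.689), TLR8 (22.2 ± 1.97), TLR1 (13.9 ± 0.842), TLR6 (2.89 ± 0.0661), TLR4 (2.24 ± 0.0864) and TLR5 (0.0556 ± 0.0221), with no overlap between the ranges of neighbours.

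In control libraries MYD88 (29.6 ± 1.20 CPM per kilobase) and TLR2 (28.5 ± 1.29) changed places and their ranges overlapped. The other places were the same as in knockdown libraries. This order depends on the length used: the longest TLR4 transcript has 12853 bases and the LY96 one 607. With the mean length of a gene's protein-coding transcripts in place of the longest, TLR2 came second in both groups, at 73.7 ± 3.59 CPM per kilobase in knockdown and 61.2 ± 2.76 in control libraries, CD14 stayed first, and TLR4 stayed eighth. Which transcripts of each gene were present was not analysed here.

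**Figure D4:**
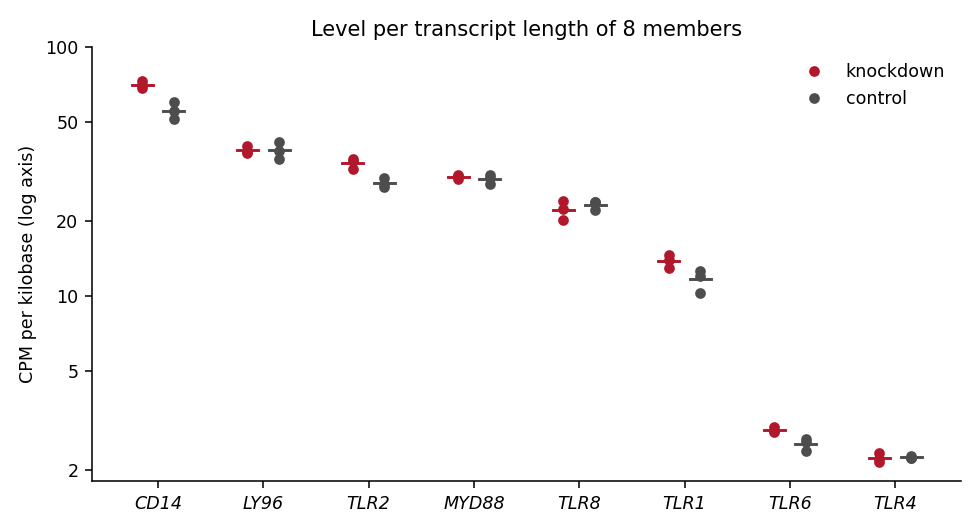
CPM per kilobase of the longest transcript (log axis) of 8 members in the 3 knockdown and 3 control libraries; dots are libraries and lines are means, and TLR5, under 0.08 in every library, is left out. CD14 was highest in both groups and TLR4 lowest of the 8.

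Further genes of the pathway, 62 chosen by role, were also examined, and the ones past the threshold in edgeR fell. Of the 62, 58 were in the table and 56 were tested. Of these, 0 rose in edgeR and 3 fell, where 1.22% and 1.61% of all genes did. At an unadjusted p under 0.05, 3 of the 56 were higher and 9 lower, where 6.89% and 8.21% of all genes were. Their median was -0.035 on the log2 scale. In 7 of the 56 all knockdown libraries lay above the controls, and in 13 all of them lay below, where 9.61% and 10.4% of all genes did. DESeq2 called 1 pathway gene higher and 3 lower, and called 134 higher and 211 lower among the 9111 genes it gave an adjusted p.

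CD180 encodes RP105, a relative of TLR4 that lacks a signalling domain and pairs with MD-1. It had 156, 145 and 139 CPM in knockdown libraries, against 182, 182 and 173 CPM in control libraries. The groups did not overlap. CD180 fell by 0.29 on the log2 scale (SE 0.051, edgeR adjusted p = 0.00513), with an adjusted p of 0.0545 without knockdown replicate 2 and 0.059 without knockdown replicate 3. LY86, which encodes MD-1, had 16.1 ± 1.14 CPM in knockdown and 18.3 ± 0.901 CPM in control libraries (SD, n = 3 each) and did not pass (edgeR adjusted p = 0.4).

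IRF8, a transcription factor of the monocyte lineage that also acts downstream of Toll-like receptors, had 27.7, 26.1 and 26.3 CPM in knockdown libraries, against 34.0, 38.6 and 34.4 CPM in control libraries. IRF8 fell by 0.42 on the log2 scale (SE 0.075, edgeR adjusted p = 0.00535). Its adjusted p was 0.0508 without knockdown replicate 2 and 0.0521 without control replicate 2. No knockdown library reached the lowest control.

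DUSP1, a phosphatase that switches off MAP kinases after receptor signalling, had 30.3, 31.1 and 28.7 CPM in knockdown libraries, against 38.1, 40.0 and 34.7 CPM in control libraries. DUSP1 fell by 0.32 on the log2 scale (SE 0.074, edgeR adjusted p = 0.0266). This call was lost without knockdown replicates 1, 2 or 3 (adjusted p 0.0887, 0.0857 and 0.132) and without control replicate 2 (0.166).

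**Figure D5:**
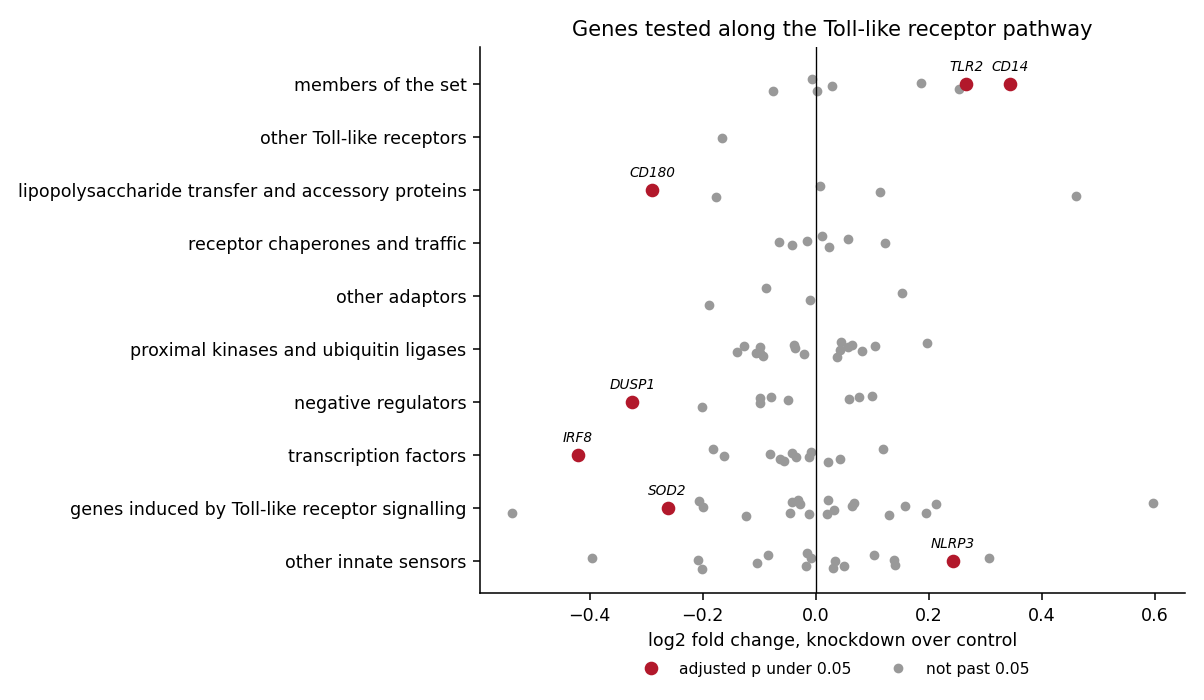
Log2 fold change, knockdown over control, of the members, of the pathway genes by role, of genes induced by Toll-like receptor signalling and of other innate sensors; red marks an adjusted p under 0.05. The 3 pathway genes in red lie below 0, while CD14 and TLR2 lie above it.

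Chaperones, other adaptors and proximal kinases had 0 calls in edgeR and in DESeq2. At an unadjusted p under 0.05, 1 of 7, 0 of 4 and 1 of 17 were higher, where 6.89% of all genes were. At that p, 0 of 7, 0 of 4 and 3 of 17 were lower, where 8.21% of all genes were. The most abundant accessory gene, ITGB2 (the beta-2 integrin chain), had 3634 ± 114 CPM in knockdown and 3359 ± 14.1 CPM in control libraries (SD, n = 3 each; edgeR adjusted p = 0.178), and it was the 1 gene that DESeq2 called higher. Among 7 chaperone and traffic genes HSP90B1, the chaperone that folds most Toll-like receptors, had a log2 fold change of -0.042. Among 4 other adaptors tested PIK3AP1 was the most abundant, at -0.088. The 17 proximal kinases and ubiquitin ligases had a range of -0.14 to 0.20, with TAB2, which links ubiquitin chains to the kinase TAK1, at -0.093.

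The remaining receptors and regulators can be given in brief. TLR3, the most abundant of the receptors outside the set, had 1.64 ± 0.183 CPM in knockdown and 1.84 ± 0.244 CPM in control libraries (SD, n = 3 each), and TLR7 was too low to test, at 0.829 ± 0.378 CPM in knockdown and 0.716 ± 0.266 CPM in control libraries. Apart from DUSP1, 8 negative regulators tested did not pass, among them TNIP1, which restrains NF-kB, at a log2 fold change of -0.078. IRAK3, also among them, was at -0.20 (edgeR adjusted p = 0.113), with every knockdown library below every control library. Such separation downwards held for 3 of the 9 negative regulators tested, and separation upwards for 2, where 10.4% and 9.61% of all genes had it. At an unadjusted p under 0.05, 2 of the 9 negative regulators were lower and 0 higher, where 8.21% and 6.89% of all genes were. Apart from IRF8, 12 transcription factors did not pass, with REL, an NF-kB subunit and the most abundant of them, at -0.16 (edgeR adjusted p = 0.0792). Of the 13 transcription factors, 3 were lower and 0 higher at an unadjusted p under 0.05, where 8.21% and 6.89% of all genes were. In 4 of the 13 all knockdown libraries lay below the controls, and in 0 above, where 10.4% and 9.61% of all genes did. NFKB2, another NF-kB subunit named after its values were seen, was at -0.18 and did not pass (edgeR adjusted p = 0.0629). Without control replicate 1, REL and NFKB2 both passed in edgeR, with log2 fold changes of -0.19 and -0.21 (adjusted p 0.0155 and 0.00999). That fit called 3.96% of all genes, against 2.83% with no library left out. Neither gene passed with any other single library left out.

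Of 25 listed genes that Toll-like receptor signalling induces, 20 were tested. In edgeR 0 were called higher and 1 lower, where 1.22% and 1.61% of all genes were. At an unadjusted p under 0.05, 2 were higher and 2 lower, where 6.89% and 8.21% of all genes were. The 20 had a median log2 fold change of 0.0044. SOD2, the mitochondrial superoxide dismutase, had 1690, 1700 and 1695 CPM in knockdown libraries, against 2167, 1979 and 1953 CPM in control libraries. It fell by 0.26 (SE 0.046, edgeR adjusted p = 0.00501), and the call held without any 1 library, with adjusted p up to 0.0481. The most abundant of the list, the chemokine CCL5, had a log2 fold change of 0.022 (edgeR adjusted p = 0.879).

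Among 16 other innate sensors, edgeR called 1 higher and 0 lower, where 1.22% and 1.61% of all genes were. At an unadjusted p under 0.05, 1 was higher and 1 lower, where 6.89% and 8.21% of all genes were. The 16 had a median log2 fold change of 0.011. NLRP3, which forms an inflammasome, had 138, 143 and 134 CPM in knockdown libraries, against 122, 117 and 112 CPM in control libraries. Its log2 fold change was 0.24 (edgeR adjusted p = 0.0151), with adjusted p of 0.0681, 0.124 and 0.0748 without knockdown replicate 1, knockdown replicate 2 and control replicate 2. IFIH1, a cytoplasmic RNA sensor and the most abundant of them, had a log2 fold change of 0.035.

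Markers moved in both directions beside CD14. At an unadjusted p under 0.05, 3 of 18 markers tested were higher and 3 lower, where 6.89% and 8.21% of all genes were. Of the 8 macrophage markers, 6 had negative log2 fold changes, and 2 were higher and 2 lower at that p. FCGR1A (log2 fold change -0.50, edgeR adjusted p = 0.0754) had every knockdown library below every control library and did not pass. ITGAM (0.16, edgeR adjusted p = 0.122) had every one above and did not pass. LYZ, which encodes lysozyme, had 86.9 ± 6.27 CPM in knockdown and 114 ± 2.50 CPM in control libraries (SD, n = 3 each) and fell by 0.40 on the log2 scale (edgeR adjusted p = 0.000928, up to 0.0148 without any 1 library). CD163, a haemoglobin scavenger receptor, had a log2 fold change of 0.40 (edgeR adjusted p = 0.0127), with adjusted p of 0.0535, 0.119 and 0.0796 without knockdown replicate 1, knockdown replicate 2 and control replicate 2. CD1A, a lipid-presenting molecule of some dendritic cells, had 9.77 ± 0.921 CPM in knockdown and 6.92 ± 0.244 CPM in control libraries (SD, n = 3 each; edgeR adjusted p = 0.0427), and did not pass with any 1 of the 6 libraries left out (adjusted p 0.052 to 0.219). Of the other dendritic cell markers with a row, FLT3 had 3.23 ± 0.195 CPM in knockdown and 3.81 ± 0.306 CPM in control libraries, with every knockdown library below every control library, and did not pass (edgeR adjusted p = 0.62). CD1C overlapped between groups (log2 fold change 0.098, edgeR adjusted p = 0.633). Their part in the CD14 result was not tested.

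The transcripts whose log2 CPM followed CD14 most closely over the 6 libraries, among 11745 genes, were P3H2, a collagen-modifying hydroxylase (Pearson r = 0.997), ICAM1, an adhesion molecule (0.994), and the lipid kinase PI4KA (0.992). P3H2 had 9.64, 10.9 and 9.77 CPM in knockdown libraries, against 5.20, 7.20 and 5.87 CPM in control libraries. Like CD14, it was highest in knockdown replicate 2 and lowest in control replicate 1. It rose by 0.73 on the log2 scale (edgeR adjusted p = 0.00884, and 0.0783 without knockdown replicate 2). ICAM1, itself listed among the genes induced by Toll-like receptor signalling, had 1329.5 ± 28.6 CPM in knockdown and 1214.5 ± 32.4 CPM in control libraries (SD, n = 3 each) and did not pass (edgeR adjusted p = 0.123).

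For TLR2 the closest were the anchoring protein gene AKAP13 (Pearson r = 0.994), TMEM129 (0.994) and MAMLD1 (0.988). AKAP13 had 110, 115 and 114 CPM in knockdown libraries, against 103, 99.8 and 97.3 CPM in control libraries, and did not pass (edgeR adjusted p = 0.0673). These correlations are highest among many genes in 6 libraries that share group, depth and processing, and they describe likeness of pattern only.

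Promoters of 7 of the 9 members were found in the RefSeq table (GRCh38.p14), each 300 bases long with 250 before the start, and LY96 and TLR1 had no entry. Short letter patterns were searched on both strands. The pattern AGGAAGT, named for PU.1, a factor of the myeloid lineage, was found in 3 of the 7, TLR2, TLR4 and TLR8, and in 8.24% of all 35116 promoters. TGANTCA, named for AP-1, was found in CD14 alone of the 7 and in 7.71% of all promoters. TTC and GAA with 4 bases between them, named for STAT6, which IL-4 activates, was found in TLR6 and in 6.44% of all promoters. The interferon-stimulated response pattern, GAAA on both sides of 2 bases, was found in MYD88 and in 3.57%, and GGGA and TTCC with 2 bases between them, named for NF-kB, in 0 of the 7 and in 1.61%. Stretches of 30 bases around the matches in CD14 and TLR2 are shown because these genes rose, with the match in capitals.
CD14: cctggggcgccTGAGTCAtcaggacactgc
TLR2: ttcccttttgcttACTTCCTagtcccgggc
The CD14 stretch is chr5:140633380-140633409, minus strand, with the match 223 bases before the start, and the TLR2 stretch is chr4:153684250-153684279, plus strand, with the match, which reads AGGAAGT on the other strand, 17 bases before the start. These starts are those of the RefSeq table, and both stretches lie inside the GENCODE 29 gene spans given above, which begin further upstream. A match describes letters and shows no binding, and CD14 and TLR2 had no pattern of the 5 in common.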

How the data were processed

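The authors deposited expected counts, 1 row per gene symbol, and 100% of the values were whole. The submitters' processing notes name Salmon 0.11.2, DESeq2 and hg38 without roles. Salmon divides reads between genes that share sequence. Rounding, annotation and strand use are not given in the sources used here. The lowest row sum was 10. Titles gave the groups. edgeR 4.0.16 (TMM scaling, filterByExpr, quasi-likelihood on group alone, two-sided, Benjamini-Hochberg over all genes tested, threshold 0.05) gave the main results. The SE is the absolute log2 fold change over the square root of F, and 95% intervals use t. CPM uses TMM-scaled totals. Counting errors and the floor of 3 counts cover counting only. Libraries within a group differed beyond sampling noise, and control libraries more than knockdown libraries. The chi-square per degree of freedom between a pair of libraries was 1.9 to 2.28 in knockdown and 2.79 to 6.79 in control libraries. Pairs with control replicate 1 had the highest values, 3.98 and 6.79. Members, lists and tests were chosen with earlier results of these data known. Named from the lists were genes past the threshold and the most abundant gene of each role, and for CD14 and TLR2 the 3 genes most correlated with each. LY86, TLR7, IRAK3, NFKB2, FCGR1A, ITGAM, FLT3, CD1C and the count ratios were added after their values were seen. The table held 134 of 152 list entries (3 by an earlier gene symbol). Alternatives were DESeq2 1.42.0, limma-voom 3.58.1, other normalizations, filters and thresholds, the replicate number as a block, and leaving out each library. GENCODE 29 on GRCh38 gave positions, lengths and shared sequence. Simulated data with known changes were used to test the script.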

Additional observations from a re-analysis of the deposited data

How the results depend on the processing

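CD14 kept its direction and its call under all 13 alternatives (log2 fold change 0.29 to 0.41). TLR2 kept its direction, and its log2 fold change was 0.24 to 0.31 with 1 library left out. TLR1 ranged from 0.17 to 0.32 with 1 library left out. Members near 0 changed sign with 1 library left out: LY96 ranged from -0.054 to 0.063, TLR4 from -0.036 to 0.017 and MYD88 from -0.0036 to 0.056. Members called higher numbered 1 to 3 with 1 library left out and 1 at an adjusted p under 0.01. Genes called over the whole table numbered 139 to 542 with 1 library left out and 150 at an adjusted p under 0.01. Pathway genes called lower numbered 0 to 5 with 1 library left out, and DESeq2 called 1 pathway gene higher (ITGB2) against 0 in edgeR. The causes were not tested. With the mean transcript length, 5 members in knockdown and 2 in control libraries took another place in the order of levels.

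The replicate numbers do not pair the samples by any label. Same-numbered libraries deviated together with correlations of 0.054, 0.101 and 0.073 over genes, and each library correlated best with its own number, a hint from the data and not the design. With the replicate number as a block, 488 genes were called, and the members called higher (2) were CD14 and TLR2. The block also called 4 pathway genes lower, against 3 without it, the gain being NFKB2 (adjusted p = 0.0444). Depth limits TLR5, and low counts widen the intervals of TLR6 and LY96.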
